A study of Ovis aries with 8 samples.

Results

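Proteins bound for secretion fold in the endoplasmic reticulum (ER), and the genes described here encode the machinery that folds them, closes their disulfide bonds, removes those that fail and senses the load. The set was chosen by gene name: 35 genes were named, and a member was the row of the deposited expression table that carried exactly that name. Of these 35, 33 were found among the 25000 rows of the table, and all 33 passed the abundance filter used for testing. They comprise 13 chaperones and cochaperones, 8 of 9 genes of oxidative folding, 9 genes of ER-associated degradation and 3 of 4 stress sensors and their factors. ERO1B and XBP1 have no row under these names and were not analysed here.

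The RNA came from isolated pancreatic islets of 8 sheep fetuses close to term, all singletons carried by Columbia-Rambouillet crossbred ewes. The 4 fetuses of the norepinephrine group were infused with this catecholamine for 7 days and were 137 to 139 days of gestation. The dose was 1 µg/min at first, was raised to 2 µg/min from day 2 and reached 4 µg/min for days 5 to 7. The 4 controls were given the carrier alone, 0.9% saline with ascorbic acid at 0.3%, and were 139 or 140 days of gestation. Each library is 1 fetus, and each group holds 1 female. Isolated islets are a mixture of endocrine cells with remnants of other pancreatic tissue, so a level per library does not tell fewer cells of a type from less RNA per cell.

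In the ER lumen the HSP70 chaperone HSPA5 (BiP) binds unfolded chains, J-domain proteins steer it to its clients, and GRP94 acts further along the same path. The lectins calnexin and calreticulin hold glycoproteins while protein disulfide isomerases form and reshuffle their bonds. Chains that fail are drawn out through a ubiquitin ligase complex and degraded in the cytosol. The sensors IRE1, PERK and ATF6 respond to an excess of unfolded chains, and many of the genes described here are known targets of that response in mammals. Beta cells carry a heavy folding load because they make proinsulin in large amounts.

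Values are FPKM, fragments scaled to transcript length and library size, so that levels of different genes can be compared per length. Differences are log2(FPKM + 1), norepinephrine minus control, tested with limma over all 13252 genes with a mean of at least 1 FPKM, and ± marks the SD of a group of n = 4 animals. Libraries also part by how the animal number begins, 09 or 10, whose meaning the labels do not give. The animals numbered 09 are norepinephrine 1, 3 and 4 and control 2, and those numbered 10 are norepinephrine 2 and controls 1, 3 and 4. Summed FPKM was 768021 to 796149 in animals numbered 10 and 981583 to 1112624 in those numbered 09. Many treatment values are therefore given a second time with the number prefix in the model. Of 11 endocrine markers with a row, CHGA averaged 4853 ± 830 FPKM with norepinephrine and 3891 ± 1555 FPKM in controls, while IAPP is listed at 0 in every animal. INS has no row under this name. The log2 difference of CHGA was 0.044 with the number prefix. SST averaged 1142 ± 717 FPKM with norepinephrine and 393 ± 369 FPKM in controls (log2 1.73, limma adjusted p = 0.628), or 2.19 with the number prefix. Of 10 tested endocrine markers 9 had higher means, and PCSK1 was lower (log2 -0.40).

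Across the 33 members, chaperones and folding enzymes stood at higher mean levels after norepinephrine and the degradation genes did not. Of the 13 chaperones, 12 had higher means (median log2 difference 0.43), as had 8 of 8 genes of oxidative folding (median 0.35). Of the 9 degradation genes, 4 were higher and 5 lower (median -0.019), and of the 3 sensors 2 were higher (median 0.057). The median over all 13252 tested genes was 0.017, and 52.6% of them had higher means. With the number prefix in the model, 9 of 13 chaperones (median 0.14), 5 of 8 genes of oxidative folding (median 0.062), 2 of 9 degradation genes (median -0.053) and 1 of 3 sensors (median -0.0091) were higher, where 47.2% of all genes were. With gestational age as a covariate the medians were 0.023 for chaperones and -0.072 for oxidative folding. With the libraries scaled to equal totals, which moved the median of all genes to -0.12, the medians were 0.28 for chaperones, 0.20 for oxidative folding, -0.17 for degradation and -0.086 for sensors.

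No member passed the adjusted threshold: limma called 0 of 33 at an adjusted p under 0.05, as it called 0 of all tested genes (0%), of which 7.36% had an unadjusted p under 0.05, and the lowest adjusted p of a member was 0.550. Below 0.05 before adjustment were 8 members with higher means and 0 with lower ones, where 3.61% of all tested genes were higher and 3.74% lower. With equal library totals the split over all genes was uneven, with 22.3% of such genes higher against 49.1% without that scaling, and 7 members were higher. The 8 members are HSPA5, HSP90B1, HYOU1, CALR, CANX, PDIA3, PDIA4 and ERP44, 5 chaperones and 3 genes of oxidative folding. Their log2 differences ran from 0.31 to 0.61, and in both number groups all 8 had the higher mean, by 0.27 to 0.39 in animals numbered 09 and by 0.12 to 0.42 in those numbered 10. The 8 were picked by the pooled p of these same animals, so this agreement is no separate support. Each number group also rests on 1 animal of a treatment, a control in 09 and a norepinephrine animal in 10. Over all tested genes, which were not picked by p, 25.9% were higher within both, and 14 of the 33 members were. The number of members higher at this unadjusted threshold depended on single animals, as did the share of all tested genes. The number was 16 without control 2 (9.88% of all genes), 5 without norepinephrine 1 (3.21%) and 5 without norepinephrine 3 (2.98%). It was 3 without norepinephrine 4 (2.54%), 3 without control 1 (2.82%) and 2 without control 3 (2.04%). Without norepinephrine 2, PDIA6 and P4HB joined the 8 (6.2% of all genes). Without control 4, HSPA5, HYOU1, CANX, PDIA3, PDIA4 and ERP44 were left (2.27%). CANX and PDIA4 stayed under the threshold whichever animal was left out.

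**Figure D1:**
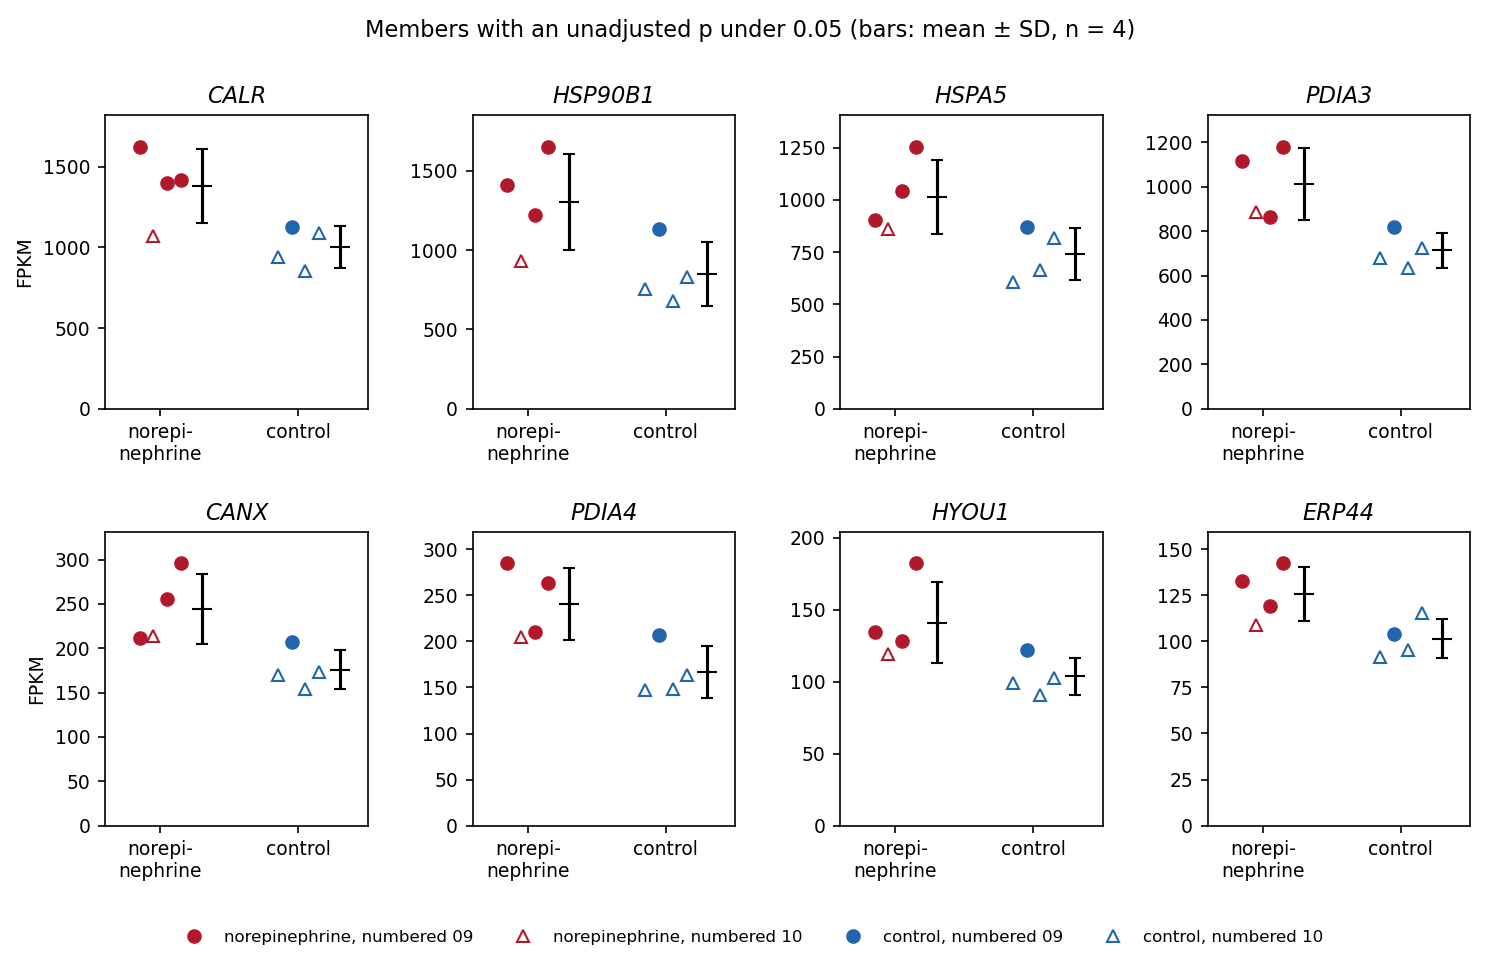
FPKM of the 8 members with an unadjusted p under 0.05, 1 point per animal, norepinephrine left of control; filled circles are animals numbered 09 and open triangles those numbered 10, and bars give the mean ± SD (n = 4). The groups part without overlap for PDIA3 and CANX, and in the other 6 panels control 2 or control 4 reaches into the norepinephrine range.

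HSPA5 (BiP), the central HSP70 chaperone of the ER lumen and the brake on its stress sensors, lies on chromosome 3 at 10721674 to 10750068 of the sheep build Oar_v3.1. It stood at 902, 862, 1044 and 1255 FPKM in norepinephrine 1 to 4, against 607, 871, 665 and 815 FPKM in controls 1 to 4. All norepinephrine animals lay above controls 1, 3 and 4, and norepinephrine 2 lay just under control 2. The log2 difference was 0.46 (SE 0.19, limma adjusted p = 0.657) and 0.30 with the number prefix in the model. Its locus in the file is shared with RABEPK, which averaged 86.6 FPKM over the 8 animals, and the sources used here do not give the strand of the reads, so its value is uncertain to that extent.

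HSP90B1 (GRP94), the HSP90 chaperone of the ER (chromosome 3, 172674192 to 172694453), had the largest difference of any member. Its levels were 1409, 933, 1220 and 1653 FPKM in norepinephrine 1 to 4, against 752, 1135, 681 and 832 FPKM in controls 1 to 4. Control 2 was higher than norepinephrine 2, and the other 3 controls were below every norepinephrine animal. The means were 1304 ± 304 FPKM with norepinephrine and 849.9 ± 200 FPKM in controls, and on the log2 scale they differed by 0.61 (SE 0.23, limma adjusted p = 0.612). With the number prefix in the model the difference was 0.31 (SE 0.13, limma adjusted p = 0.423), and the gene was lower in animals numbered 10 than in those numbered 09 (log2 -0.60, limma adjusted p = 0.0251).

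HYOU1 (GRP170), which exchanges the nucleotide of HSPA5 and lies on chromosome 15 at 29117660 to 29129938, averaged 141 ± 28.1 FPKM with norepinephrine and 104 ± 13.0 FPKM in controls. Its values were 135, 119, 128 and 182 FPKM in norepinephrine 1 to 4, against 99.4, 122, 91.1 and 102 FPKM in controls 1 to 4. Only control 2 overlapped the norepinephrine animals, and the log2 difference was 0.43 (SE 0.16, limma adjusted p = 0.597), or 0.28 with the number prefix.

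Both lectin chaperones were among the 8, and both lie on chromosome 5, CALR at 10700649 to 10703831 and CANX at 1301545 to 1334674. CALR (calreticulin), the soluble lectin and a calcium store of the ER, was the most abundant chaperone, with 1624, 1070, 1402 and 1418 FPKM in norepinephrine 1 to 4 and 943, 1125, 851 and 1089 FPKM in controls 1 to 4. Norepinephrine 2 lay inside the range of the controls, and its log2 difference from the controls numbered 10 was 0.16. The overall log2 difference was 0.45 (SE 0.19, limma adjusted p = 0.655), or 0.28 with the number prefix. CANX (calnexin), the membrane-bound lectin, had 212, 214, 255 and 296 FPKM in norepinephrine 1 to 4, against 170, 207, 154 and 173 FPKM in controls 1 to 4. Its groups did not overlap, and the log2 difference was 0.47 (SE 0.15, limma adjusted p = 0.574), or 0.33 with the number prefix. Without overlap and higher were 2 of 33 members, where 1.88% of all tested genes were, and 0 members were lower without overlap, where 2.35% of all genes were.

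The J-domain cochaperones of HSPA5 had smaller differences. DNAJB9 (ERdj4), a repressor of IRE1 in mammalian cells, averaged 160 ± 21.9 FPKM with norepinephrine and 164 ± 25.6 FPKM in controls (log2 -0.034, 95% interval -0.38 to 0.31). DNAJC10 (ERdj5), a disulfide reductase, averaged 64.5 ± 5.74 and DNAJC3 (p58IPK) 68.5 ± 11.6 FPKM with norepinephrine, against 59.4 ± 5.61 and 57.1 ± 7.05 FPKM in controls, log2 differences of 0.12 and 0.25. DNAJB11 (ERdj3) averaged 78.0 ± 23.0 FPKM with norepinephrine and 60.2 ± 18.2 FPKM in controls. Its log2 difference of 0.37 became 0.0071 with the number prefix in the model, the value within animals numbered 10 being 0.017. The differences of the cochaperones and of HSPA5 were not tested against each other.

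The remaining 4 genes of the chaperone class are known as targets of the unfolded protein response in mammals. SDF2L1, a partner of DNAJB11, had 21.4, 11.0, 13.0 and 18.3 FPKM in norepinephrine 1 to 4, against 10.6, 22.6, 8.66 and 6.54 FPKM in controls 1 to 4, and so the lowest level of the class. Control 2 was the highest animal of all 8. The same animal led in CRELD2, a secreted ER stress protein, which had 149.6, 82.0, 92.3 and 133 FPKM in norepinephrine 1 to 4, against 74.0, 155, 70.0 and 65.3 FPKM in controls 1 to 4. MANF, a secreted neurotrophic factor that binds HSPA5 and is needed for beta-cell survival in mice, averaged 401 ± 76.9 FPKM with norepinephrine and 308 ± 119 FPKM in controls. With the number prefix in the model the log2 differences were -0.016 for SDF2L1, -0.051 for CRELD2 and 0.076 for MANF, against 0.46, 0.38 and 0.43 without it. The locus of SDF2L1 is shared with UBE2L3 (366 FPKM) and that of CRELD2 with ALG12 (46.0 FPKM) and BRD1 (17.2 FPKM), so both values are uncertain.

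FKBP11, a prolyl isomerase of the secretory pathway, had the largest negative difference of the class once the number prefix was in the model. DNAJB9 (-0.13), SDF2L1 and CRELD2 were the other chaperones below 0 there. It had 416, 237, 435 and 393 FPKM in norepinephrine 1 to 4, against 269, 613, 325 and 303 FPKM in controls 1 to 4. Within each number group the norepinephrine animals were below the control value or mean, by 0.57 on the log2 scale in 09 and by 0.33 in 10, while the pooled difference was 0.012 (SE 0.29, limma adjusted p = 0.993) and turned negative with either scaling of the libraries. With the prefix in the model the difference was -0.45 (SE 0.11), which did not pass (limma adjusted p = 0.309), as no member did in that model, where 0.00755% of all genes were called. It was then the 1 member lower at an unadjusted p under 0.05, where 7.14% of all tested genes were, while 5 members were higher, HSP90B1, CANX, PDIA3, PDIA4 and ERN1, where 4.57% of all genes were.

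**Figure D2:**
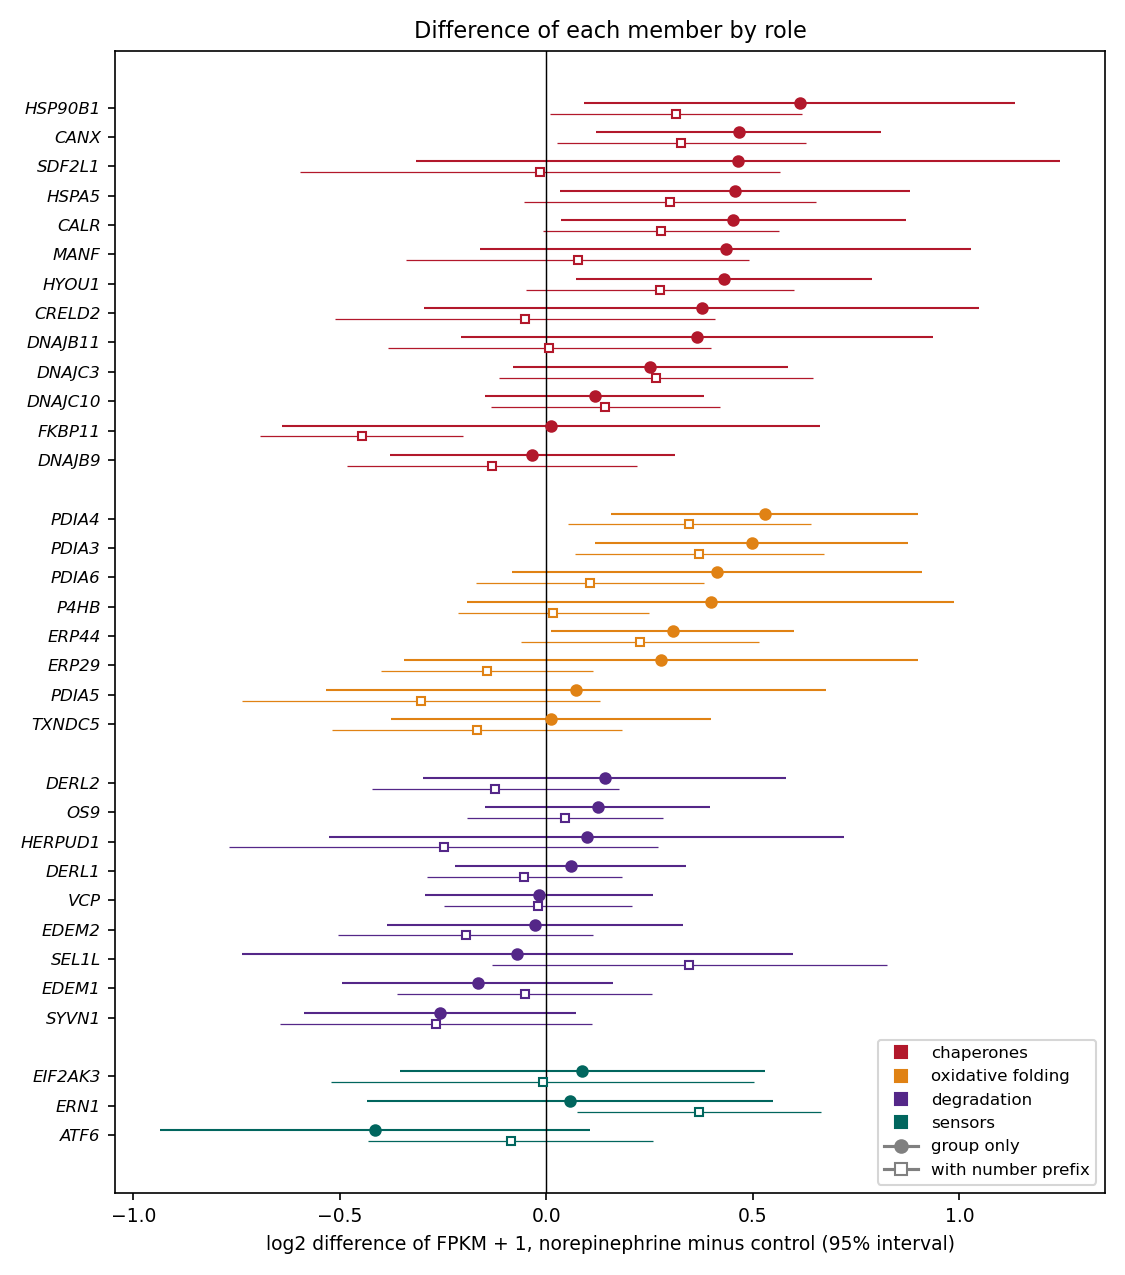
Log2 difference of FPKM + 1, norepinephrine minus control, with its 95% interval for each of the 33 members, ordered within role class; filled circles are the model with the group alone and open squares the model with the number prefix. Among chaperones and folding enzymes most squares lie nearer 0 than the circles, and HSP90B1, CANX, PDIA3 and PDIA4 keep intervals above 0 in both.

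Among the folding enzymes, PDIA3 and PDIA4 led. PDIA3 (ERp57), the isomerase that works with calnexin and calreticulin, had 1117, 886, 865 and 1180 FPKM in norepinephrine 1 to 4, against 681, 818, 633 and 723 FPKM in controls 1 to 4. Every norepinephrine animal was above every control, and the log2 difference was 0.50 (SE 0.17, limma adjusted p = 0.576), with 0.35 within 09 and 0.39 within 10. It lies on chromosome 18 at 54338798 to 54352776. PDIA4 (ERp72), on chromosome 4 at 111555467 to 111572217, had 285, 204, 210 and 264 FPKM in norepinephrine 1 to 4, against 147, 207, 148 and 164 FPKM in controls 1 to 4. Control 2 lay between norepinephrine 2 and norepinephrine 3, and PDIA4 had the lowest p of all members (log2 0.53, SE 0.17, limma adjusted p = 0.550), with a log2 difference of 0.35 once the number prefix was in the model. ERP44, which retains immature cargo and oxidases by thiol bonds (chromosome 2, 47307132 to 47528922), averaged 126 ± 14.7 FPKM with norepinephrine and 101 ± 10.7 FPKM in controls, which differ by 0.31 on the log2 scale (SE 0.13, limma adjusted p = 0.666). Its log2 difference was 0.23 with the number prefix and 0.15 with equal library totals.

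P4HB, protein disulfide isomerase itself (chromosome 11, 50196914 to 50206198), had the highest mean level among the 33 members, ranked 100 among the rows of the table by mean FPKM. It had 1649, 981, 1600 and 1550 FPKM in norepinephrine 1 to 4, against 875, 1644, 886 and 1043 FPKM in controls 1 to 4. The 4 animals numbered 09 lay between 1550 and 1649 FPKM whatever their treatment, and the 4 numbered 10 between 875 and 1043 FPKM. The pooled log2 difference of 0.40 (SE 0.26, limma adjusted p = 0.758) was 0.017 with the number prefix in the model.

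ERP29, a chaperone-like protein of the thioredoxin fold without an active-site cysteine pair, followed the same order, with 886, 507, 751 and 868 FPKM in norepinephrine 1 to 4 and 475, 1007, 521 and 545 FPKM in controls 1 to 4. PDIA6 (P5), which attenuates IRE1 and PERK signalling in mammalian cells, averaged 517 ± 93.3 FPKM with norepinephrine and 394 ± 112 FPKM in controls, and PDIA5, reported to act on ATF6 in human cells, 40.1 ± 12.8 and 37.6 ± 10.9 FPKM in the same order. TXNDC5 (ERp46), an isomerase rich in endothelium and secretory cells, averaged 74.6 ± 13.3 FPKM with norepinephrine and 73.7 ± 11.7 FPKM in controls. With the prefix in the model the log2 differences of these 4 genes were -0.14, 0.11, -0.30 and -0.17, and none had an unadjusted p under 0.05. The row named ERO1LB, the older symbol of the pancreatic oxidase gene ERO1B, is not a member by exact name. It held 43.2 ± 5.82 FPKM with norepinephrine and 47.5 ± 5.52 FPKM in controls (log2 -0.14, limma adjusted p = 0.826).

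The log2 differences of the genes of ER-associated degradation ran from -0.26 to 0.14. Some intervals were wide, as for SEL1L (95% interval -0.74 to 0.60), so equal levels were not shown. VCP (p97), the ATPase that pulls substrates out of the membrane, was the most abundant of these genes. It had 420, 459, 432 and 461 FPKM in norepinephrine 1 to 4, against 411, 467, 434 and 486 FPKM in controls 1 to 4. The groups overlapped throughout, and the log2 difference was -0.019 with a 95% interval of -0.30 to 0.26. OS9, a lectin that hands glycoproteins to the ligase complex, averaged 185 ± 19.2 FPKM with norepinephrine and 169 ± 12.6 FPKM in controls (log2 0.12, SE 0.12, limma adjusted p = 0.812), a difference of -0.029 with equal library totals.

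The ligase complex itself consists of SYVN1 (HRD1), its adaptor SEL1L and the Derlins, with HERPUD1 as an assembly factor. SYVN1 averaged 38.1 ± 6.65 FPKM with norepinephrine and 45.4 ± 3.63 FPKM in controls (log2 -0.26, 95% interval -0.59 to 0.071). SEL1L had 46.6, 85.3, 64.8 and 34.5 FPKM in norepinephrine 1 to 4, against 60.4, 37.1, 68.1 and 70.9 FPKM in controls 1 to 4. Its log2 difference was -0.070 pooled and 0.35 with the number prefix, and 0.33 within 09 and 0.36 within 10, so that the pooled sign was opposite to the sign in both number groups. DERL1 and DERL2 averaged 72.9 ± 8.41 and 78.9 ± 12.7 FPKM with norepinephrine, against 69.8 ± 6.22 and 72.7 ± 20.4 FPKM in controls, and their log2 differences of 0.059 and 0.14 were -0.053 and -0.12 with the number prefix. HERPUD1, one of the most responsive stress targets, had 174, 144, 230 and 138 FPKM in norepinephrine 1 to 4, against 136, 278, 128 and 125 FPKM in controls 1 to 4. Control 2 held the highest value, and the other 3 controls lay below every norepinephrine animal. The log2 difference was 0.098 pooled and -0.25 with the number prefix. EDEM1, which trims mannose from failed glycoproteins, averaged 10.4 ± 1.22 FPKM with norepinephrine and 11.8 ± 1.53 FPKM in controls, and its relative EDEM2 differed by -0.028 on the log2 scale (95% interval -0.39 to 0.33).

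The sensors stood at moderate levels, from 6.79 FPKM for ERN1 in control 2 to 53.6 FPKM for EIF2AK3 in norepinephrine 3. EIF2AK3 (PERK), the kinase that slows translation and is essential for beta-cell function in mouse and human, averaged 37.8 ± 11.0 FPKM with norepinephrine and 34.7 ± 4.81 FPKM in controls (log2 0.087, SE 0.20, limma adjusted p = 0.925). ERN1 (IRE1 alpha), the nuclease that splices XBP1, averaged 10.7 ± 2.64 FPKM with norepinephrine and 10.3 ± 2.50 FPKM in controls. With the number prefix in the model ERN1 differed by 0.37 (SE 0.13) with an unadjusted p of 0.0208, which did not pass after adjustment (limma adjusted p = 0.383). ATF6, the membrane-bound factor released by proteolysis, had 21.5, 36.7, 25.1 and 17.1 FPKM in norepinephrine 1 to 4, against 35.6, 24.5, 34.2 and 37.8 FPKM in controls 1 to 4. Its log2 difference was -0.41 (SE 0.23, limma adjusted p = 0.710) pooled and -0.087 with the number prefix.

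Set against each other within each animal, folding and degradation genes stood further apart on average after norepinephrine when the number groups were pooled. The mean log2(FPKM + 1) of the 13 chaperones exceeded that of the 9 degradation genes by 1.65, 1.25, 1.41 and 1.86 in norepinephrine 1 to 4 and by 1.11, 1.45, 1.03 and 1.17 in controls 1 to 4. The means were 1.54 ± 0.27 with norepinephrine and 1.19 ± 0.18 in controls. The same difference for oxidative folding was 2.06 ± 0.33 with norepinephrine and 1.74 ± 0.18 in controls, and the groups overlapped in both. Among animals numbered 10 the oxidative-folding difference was 1.68 in norepinephrine 2 and 1.59, 1.61 and 1.78 in controls 1, 3 and 4. Among those numbered 09 it was 2.27, 1.90 and 2.40 in norepinephrine 1, 3 and 4 and 1.98 in control 2. Neither difference was adjusted for the number prefix. Chaperones minus oxidative folding was -0.52 ± 0.082 with norepinephrine and -0.55 ± 0.057 in controls. These are descriptions without a test, since the members were chosen with results of these data known.

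**Figure D3:**
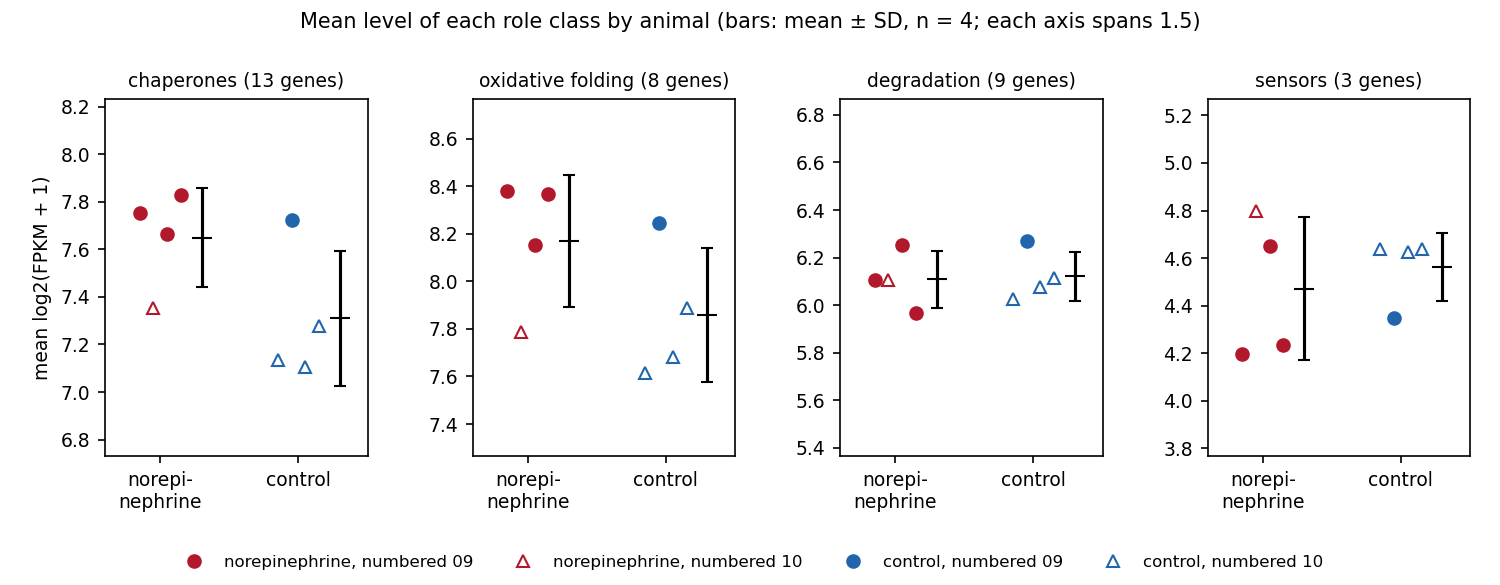
Mean log2(FPKM + 1) of the tested members of each role class per animal, norepinephrine left of control, with the mean ± SD (n = 4); each axis spans the same 1.5 log2 units and starts above 0. In the chaperone and oxidative-folding panels control 2 (filled circle) sits among the norepinephrine animals numbered 09 and norepinephrine 2 (open triangle) near the controls numbered 10, and the degradation panel shows no such parting.

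As a share of all FPKM, the 33 members took 1.18, 1.10, 1.06 and 1.11% in norepinephrine 1 to 4, against 0.937, 0.979, 0.894 and 1.04% in controls 1 to 4. The ranges did not overlap. This share removes the difference in summed FPKM between the number groups, but not differences of single members between them. It was not tested, and it was not adjusted for the number prefix or gestational age. The chaperones held 0.556 ± 0.025% with norepinephrine and 0.461 ± 0.037% in controls, and the oxidative-folding genes 0.436 ± 0.035% and 0.370 ± 0.030% in the same order. The degradation genes held 0.113 ± 0.017% with norepinephrine and 0.123 ± 0.0092% in controls. Such a share is carried by the most abundant members, and CALR, HSP90B1, HSPA5, PDIA3 and P4HB had means of 863 FPKM or more over the 8 animals.

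The number groups did differ. With treatment kept in the model, limma called 14 of the 33 members (42.4%) at an adjusted p under 0.05, where 16.5% of all tested genes were called. Of these, 11 were lower in animals numbered 10 than in those numbered 09, by 0.53 to 0.96 on the log2 scale: HSP90B1, DNAJB11, SDF2L1, FKBP11, MANF, CRELD2, PDIA5, PDIA6, P4HB, ERP29 and DERL2. The other 3, SEL1L, ATF6 and ERN1, were higher there, by 0.62 to 0.83. Over all genes 10.4% were called lower and 6.06% higher. FKBP11 averaged 284 FPKM in animals numbered 10 and 464 FPKM in those numbered 09 (log2 -0.92, SE 0.11, limma adjusted p = 0.0103), and SEL1L 71.2 and 45.7 FPKM in the same order (log2 0.83, SE 0.21, limma adjusted p = 0.0343). HSP90B1 alone belongs both to these 14 and to the 8 members under an unadjusted p of 0.05 between treatments.

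These calls rest on few animals, because the number groups hold 1 control and 1 norepinephrine animal that cross the treatment split. Without control 2 no member and 18 of all genes were called. The number of members was 3 without norepinephrine 2, 4 without control 1, 4 without control 3 and 8 without control 4. Over the fits without 1 animal the number of all genes called also moved, from 18 to 2280. The member counts therefore do not set the members apart from other genes. The norepinephrine effect was not shown to differ between the number groups for any member: the interaction had a lowest unadjusted p of 0.0671 (HERPUD1), where 5.61% of all genes were under 0.05, and limma called 0 of 33 members and 16 of all genes after adjustment (0.121%).

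**Figure D4:**
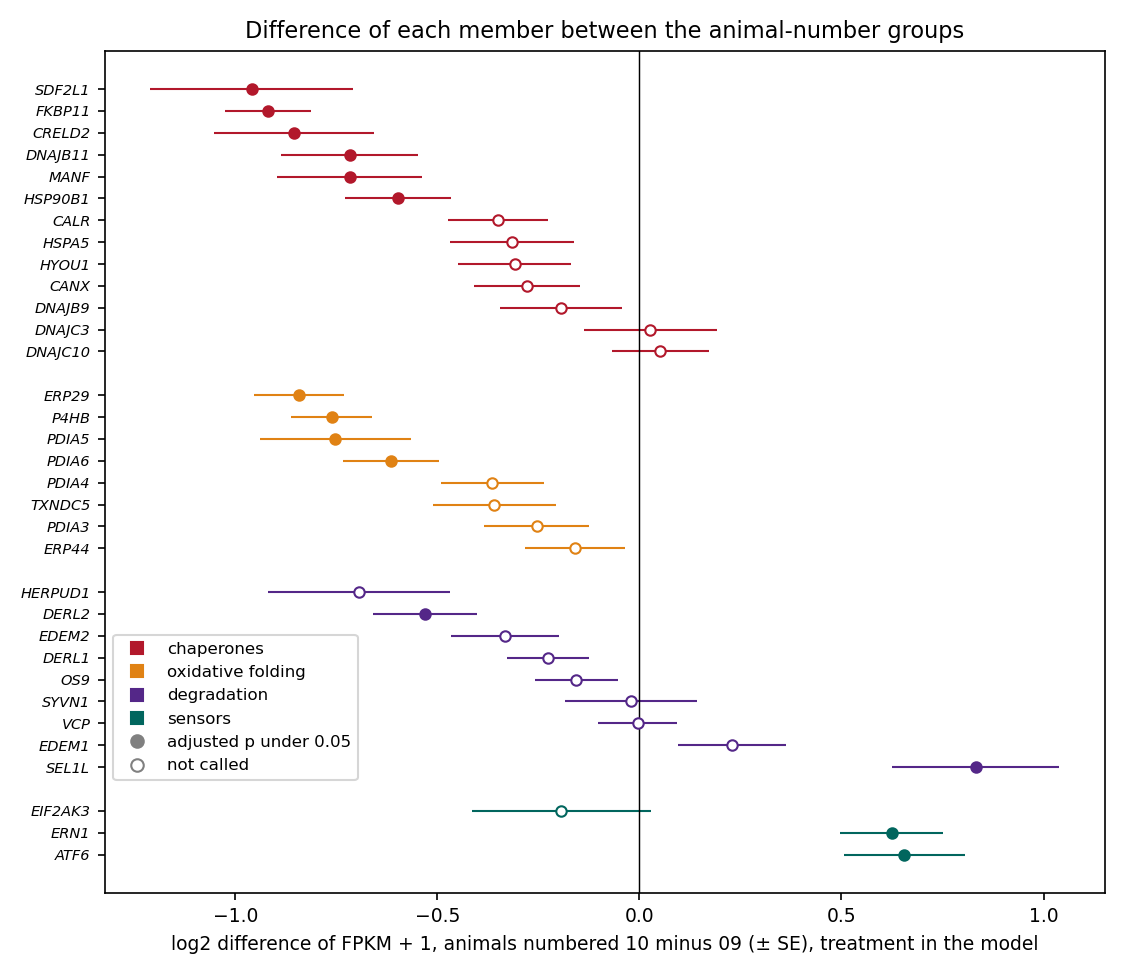
Log2 difference of FPKM + 1 between animals numbered 10 and 09 (± SE), with treatment in the model, for the 33 members by role class; filled circles have a limma adjusted p under 0.05. The 11 filled circles left of 0 are folding genes and DERL2, and SEL1L, ERN1 and ATF6 are the 3 to the right.

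Members varied together across animals. Control 2 was the highest control in 24 of 33 members and the highest of all 8 animals in 9. Norepinephrine 2 was the lowest of its group in 19. Among the 21 chaperones and folding enzymes, control 2 was the highest control in 17 and norepinephrine 2 the lowest norepinephrine animal in 16. Norepinephrine 4 was the highest animal of all for 9 members, and control 1 the lowest for 10. Such counts were not taken over all tested genes, so they do not set the members apart from other genes. Control 2 also had the highest summed FPKM of the 8 animals, 1112624, and control 1 the lowest, 768021.

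**Figure D5:**
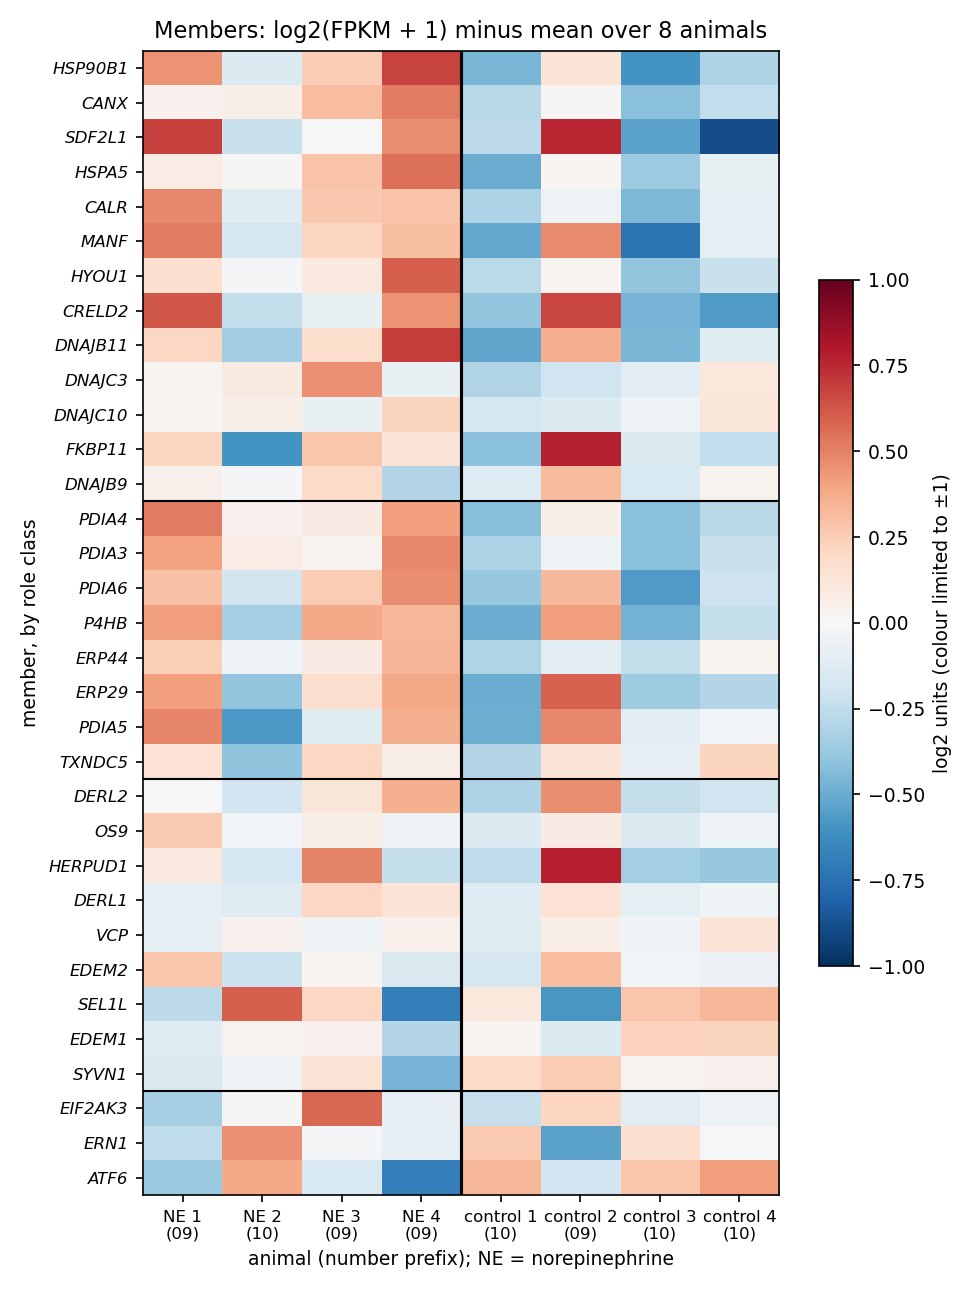
Log2(FPKM + 1) of each member minus its mean over the 8 animals, members in rows by role class and animals in columns with their number prefix, norepinephrine left of control. Most rows of chaperones and folding enzymes are red in norepinephrine 1 and 4 and, for many, control 2, and blue in controls 1 and 3, while SEL1L, ERN1 and ATF6 show mostly the opposite colours.

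Acinar cells make digestive enzymes and are rich in the same folding machinery, and their markers also had higher means after norepinephrine. All 9 acinar markers with a mean of at least 1 FPKM had higher means after norepinephrine (median log2 difference 1.04), of 19 listed and 12 with a row, and 0 passed the adjusted threshold. With the number prefix in the model 7 of the 9 were higher (median 0.52). Within animals numbered 09, 8 were higher (median 1.25), and within those numbered 10 only 2 were (median -0.78). The summed level of the acinar markers was 605, 139, 1097 and 383 FPKM in norepinephrine 1 to 4, against 168, 182, 129 and 145 FPKM in controls 1 to 4. Norepinephrine 2 lay within the control range of this sum, but not in every marker. CPB1 (carboxypeptidase B1) had 140, 58.4, 122 and 60.1 FPKM in norepinephrine 1 to 4, against 39.0, 15.5, 16.7 and 15.8 FPKM in controls 1 to 4. Its groups did not overlap (log2 2.08, limma adjusted p = 0.352). CELA1 (an elastase) had 9.76, 13.99, 16.6 and 19.7 FPKM in norepinephrine 1 to 4, against 10.3, 6.93, 3.82 and 6.51 FPKM in controls 1 to 4, and norepinephrine 1 alone lay within the control range. CPA1, CEL, CLPS and SPINK1, a peptidase, a lipase, a lipase cofactor and a trypsin inhibitor, reached 471, 184, 136 and 119 FPKM with norepinephrine, and at most 74.8, 20.2, 27.5 and 24.2 FPKM in controls. In norepinephrine 2 they stood at 40.2, 7.46, 9.08 and 6.66 FPKM, each below every control. PNLIP and RBPJL were at most 0.105 and 0.906 FPKM in any animal. The part of acinar RNA in the members' differences was not tested beyond the covariate. With the mean of the acinar markers as a covariate, 0 of 33 members had an unadjusted p under 0.05. Of all 13252 tested genes 765 had one, and 2.57% of all genes were higher at that threshold. The log2 differences were 0.47 for PDIA3, 0.46 for PDIA4, 0.41 for HSP90B1, 0.37 for CANX, 0.37 for HYOU1, 0.35 for HSPA5, 0.27 for CALR and 0.25 for ERP44. With gestational age as a covariate, which differs between the groups, they were 0.14 for PDIA3, 0.16 for PDIA4, 0.042 for HSP90B1, 0.20 for CANX, 0.017 for HYOU1, 0.14 for HSPA5, 0.22 for CALR and 0.095 for ERP44. None of the 8 then had an unadjusted p under 0.05, where 1048 of all genes did and 2.57% were higher. Duct markers summed to 290 ± 115 FPKM with norepinephrine and 159 ± 38.9 FPKM in controls, endothelial markers to 90.5 ± 32.3 and 113 ± 19.6 FPKM, mesenchymal markers to 760 ± 694 and 592 ± 139 FPKM and leukocyte markers to 139 ± 27.4 and 135 ± 24.6 FPKM, in the same order. Endocrine markers summed to 14082 ± 2728 FPKM with norepinephrine and 10695 ± 2881 FPKM in controls, and the part of these lists in the result was not tested.

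Other genes of the pathway, 103 in 4 lists, gave 84 tested genes, of which 47 had higher and 37 lower means (median log2 difference 0.074). By list the medians were 0.14 for chaperones and prolyl isomerases, 0.071 for oxidative folding, 0.090 for degradation and -0.099 for sensors and regulators. The folding and degradation lists thus lay closer together than the same classes of the members. Limma called 0 of 84 after adjustment, and 6 higher and 1 lower at an unadjusted p under 0.05, where 3.61% of all tested genes were higher and 3.74% lower. With the number prefix in the model, 32 had higher and 52 lower means (median -0.071), and 0 were higher and 12 lower at that threshold, where 4.57% and 7.14% of all genes were. Among chaperones and prolyl isomerases, 15 of 24 were higher. SEC63, the J-domain partner of the translocon, averaged 67.9 ± 8.82 FPKM with norepinephrine and 52.1 ± 4.64 FPKM in controls without overlap (log2 0.37), CDNF, the paralogue of MANF, 4.57 ± 1.89 and 2.17 ± 0.728 FPKM, and RCN2, a calcium-binding ER protein, 51.2 ± 5.55 and 39.8 ± 6.76 FPKM, in the same order. The log2 differences of these 3 genes were 0.28, 0.57 and 0.23 with the number prefix, against 0.37, 0.78 and 0.36 without it.

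Of 15 tested oxidative-folding genes outside the members, 8 were higher. PDIA2, the isomerase known as specific to pancreas and found in acinar cells in humans, had the largest difference of the 4 lists in the model without the number prefix. It had 16.0, 3.82, 34.9 and 18.9 FPKM in norepinephrine 1 to 4, against 3.30, 9.03, 3.73 and 5.53 FPKM in controls 1 to 4 (log2 1.36, SE 0.55, limma adjusted p = 0.646). Norepinephrine 3 held the highest value, as it did in the summed acinar markers, and a link between them was not tested. The log2 difference was 0.56 with the number prefix and -0.082 within animals numbered 10, and the gene was lower in animals numbered 10 than in those numbered 09 (log2 -1.61, limma adjusted p = 0.0272). ERO1L, the older symbol of the widely expressed oxidase gene, averaged 54.1 ± 12.6 FPKM with norepinephrine and 70.0 ± 12.2 FPKM in controls, and TXNDC11 62.9 ± 6.73 and 53.3 ± 11.5 FPKM in the same order, with log2 differences of -0.32 and 0.051 under the number prefix, against -0.38 and 0.25 without it.

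In the degradation list 18 of 26 were higher, with UBE2J2, an ER-bound ubiquitin-conjugating enzyme, at 72.9 ± 10.5 FPKM with norepinephrine and 58.0 ± 5.95 FPKM in controls, UBE2G2, another such enzyme, at 81.1 ± 2.14 and 68.9 ± 8.66 FPKM, and EDEM3 at 34.5 ± 8.52 and 47.0 ± 7.53 FPKM. Their log2 differences were 0.15, 0.15 and -0.29 with the number prefix, against 0.32, 0.24 and -0.46 without it. In the list of sensors and regulators 6 of 19 were higher and 13 lower. CREB3, an ER-bound factor related to ATF6, had lower values in all norepinephrine animals than in any control, 38.0 ± 1.70 against 55.5 ± 15.9 FPKM (log2 -0.50, SE 0.18, limma adjusted p = 0.597), and a log2 difference of -0.70 with the number prefix. TMED2, a cargo receptor of ER to Golgi vesicles, averaged 164 ± 13.9 FPKM with norepinephrine and 126 ± 21.2 FPKM in controls (log2 0.38, or 0.22 with the number prefix). BAX, the pro-apoptotic partner of IRE1 in mice, averaged 248 ± 43.8 FPKM with norepinephrine and 325 ± 63.9 FPKM in controls. Its log2 difference was -0.39 pooled and -0.64 (SE 0.089) with the number prefix, where it had the lowest adjusted p of the 4 lists (limma adjusted p = 0.273).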

How the data were processed

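Islet RNA of 4 norepinephrine-infused and 4 control fetuses was enriched for mRNA, made into TruSeq libraries and sequenced from both ends (100 bp), per the labels' protocols. The submitters' processing notes name TopHat2 2.0.1, Cufflinks 2.1.1, Cuffdiff and the build Oar_v3.1; the sources used here do not give filters, annotation or strand. The authors deposited 1 table of 25000 rows with an FPKM value per animal, per the file headers, and no counts, so depth in fragments is unknown and no counting interval was computed. Columns were matched to animals by number, and 0 sample columns were left out. Coordinates are those of the file, counted from 1.

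Rows with a mean of at least 1 FPKM over the 8 animals (13252) were tested as log2(FPKM + 1), a scale that understates changes of low genes, with limma 3.58.1 in R 4.3.3 (eBayes with a trend, two-sided, Benjamini-Hochberg over all tested rows, threshold 0.05). The fit was tested on simulated data. Of rows sharing a symbol the one with the highest mean carries it. The prefix and interaction fits hold cells of 1 animal, which are assumed to vary like the others.

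The members and gene lists were chosen with earlier results of these data known, so lists are described by counts and medians with no test of the list. All members are accounted for; full statistics go to those with an unadjusted p under 0.05 or groups that do not overlap, those passing with the prefix (0), and the 2 most abundant of each class, and to the 3 genes with the lowest p of each other list. Alternatives were another pseudocount (0.1), other filters (5 FPKM, or none), 2 scalings, prefix, gestational age or acinar mean as a covariate, the replicate number as a block, no variance trend, and each animal left out.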

Additional observations from a re-analysis of the deposited data

Results flagged for a closer look

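In 6 of 66 sets of 4 animals, 1 animal stood apart from the other 3 by more than Dixon's 95% limit allows. Chance gives about 1 in 20 for independent sets, but the members vary together. The check was not made over all tested genes, so the count does not set the members apart from other genes. Control 2 was the animal apart in 5 of the 6. It held 613 FPKM of FKBP11 against 269 to 325 FPKM in the other controls, and 155 FPKM of CRELD2 against 65.3 to 74.0 FPKM. It held 1007 FPKM of ERP29 against 475 to 545 FPKM, 103 FPKM of DERL2 against 59.8 to 64.8 FPKM, and 278 FPKM of HERPUD1 against 125 to 136 FPKM. Control 2 is the control numbered 09. In the norepinephrine group the P4HB level of norepinephrine 2, the animal numbered 10, was 981 FPKM against 1550 to 1649 FPKM in the other 3.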

How the results depend on the processing

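Depth in fragments is unknown, and 4 animals a group limit the precision; the number prefix and gestational age are unevenly spread over the groups. Of 10 alternatives and 8 fits without 1 animal, none gave a member an adjusted p under 0.05 (limma), and 10 of 33 members turned sign in none. Pseudocount 0.1, a minimum of 5 FPKM, no filter and no variance trend turned no sign.

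With equal library totals, 1 gene was called after adjustment, 16 members had a higher mean, and the degradation median was -0.17. The signs of DNAJC10 (-0.035), FKBP11 (-0.14), PDIA5 (-0.079), TXNDC5 (-0.14), DERL1 (-0.093), DERL2 (-0.011), HERPUD1 (-0.055), OS9 (-0.029), ERN1 (-0.086) and EIF2AK3 (-0.062) turned. With median-ratio scaling, 5 members were higher without overlap, and FKBP11 (-0.00088) and TXNDC5 (-0.0016) turned. The share of all genes without overlap was not taken under this scaling. With the number prefix, 1 gene was called after adjustment and 1552 had an unadjusted p under 0.05, with 5 members higher and 1 lower. A higher mean was then left in 17 members, with medians of 0.14 for chaperones and 0.062 for oxidative folding. SDF2L1 (-0.016), FKBP11 (-0.45), CRELD2 (-0.051), PDIA5 (-0.30), TXNDC5 (-0.17), ERP29 (-0.14), SEL1L (0.35), DERL1 (-0.053), DERL2 (-0.12), HERPUD1 (-0.25) and EIF2AK3 (-0.0091) turned. With gestational age, 2 members, DNAJC3 and SEL1L, were higher at an unadjusted p under 0.05, where 2.57% of all genes were. Neither of them is among the 8 of the model without it. A higher mean was found in 17 members, with medians of 0.023 for chaperones and -0.072 for oxidative folding. DNAJB9 (0.048), DNAJB11 (-0.32), SDF2L1 (-0.35), FKBP11 (-0.52), MANF (-0.064), CRELD2 (-0.40), PDIA5 (-0.61), PDIA6 (-0.073), P4HB (-0.072), TXNDC5 (-0.16), ERP29 (-0.35), EDEM1 (0.12), SEL1L (0.85), DERL1 (-0.054), DERL2 (-0.30), HERPUD1 (-0.032) and ATF6 (0.23) turned. With the acinar mean, 0 members had an unadjusted p under 0.05, where 765 of all genes did. FKBP11 (-0.38), PDIA5 (-0.17), TXNDC5 (-0.23), ERP29 (-0.015), SEL1L (0.15), DERL1 (-0.066), DERL2 (-0.012), HERPUD1 (-0.23), VCP (0.012) and EIF2AK3 (-0.10) turned. The causes were not tested.

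The replicate numbers do not pair the animals: same-numbered animals had correlations of their deviations from -0.38 to 0.093. With the replicate number as a block, 646 genes and 2 members, CANX and PDIA4, had an unadjusted p under 0.05.

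With 1 animal left out, 0 to 2 genes were called after adjustment and 595 to 2201 had an unadjusted p under 0.05, with 2 to 16 members higher and 0 to 1 lower. A higher mean was found in 22 to 28 members, and no overlap in 2 to 12, the highest of these without control 2. Smaller groups overlap less readily for any gene, and the share of all genes without overlap was not taken in these fits. Between animals numbered 10 and 09, 18 to 2280 genes and 0 to 15 members were called. Medians ran from 0.12 to 0.32 over all members, 0.28 to 0.54 for chaperones, 0.28 to 0.54 for oxidative folding, -0.046 to 0.071 for degradation and -0.11 to 0.15 for sensors. The sign turned within the ranges of DNAJB9 (-0.10 to 0.065), FKBP11 (-0.12 to 0.27), PDIA5 (-0.080 to 0.28), TXNDC5 (-0.086 to 0.15), EDEM2 (-0.13 to 0.071), SEL1L (-0.28 to 0.15), HERPUD1 (-0.052 to 0.37), VCP (-0.061 to 0.020), ERN1 (-0.11 to 0.15) and EIF2AK3 (-0.090 to 0.21).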
